A study of Rattus norvegicus with 2 samples.

Results

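The genes described here are 8 transcription factor genes grouped as dorsal medulla neuron lineage factors: Tlx3, Lmx1b, Lbx1, Pax2, Isl1, Hand2, Gata2 and Gata3. Not all are particular to that region, and Hand2 is best known from sympathetic and enteric ganglia. The 8 genes were chosen by name. Their probes are the non-control probes whose transcript accession belongs to 1 of the 8 in the rat RefSeq gene table. The array held 9 such probes for 7 of the 8 genes, out of 16581 named genes in all. No probe was matched to Tlx3, so its signal is not analysed here and only its upstream sequence is counted. RNA was taken from the NTS (nucleus of the solitary tract), where nerve fibres from heart, vessels and viscera end in the dorsal medulla, of female and male SHR, spontaneously hypertensive rats aged 9 weeks. Each sex was 1 pool of equal RNA amounts from 5 rats, dissected by 1 operator, and each pool was read on 1 array. There are no replicate arrays, so no test or p-value is given, and every difference compares 2 pools whose variation between animals is unknown. In such tissue RNA, fewer cells of a type and less RNA per cell cannot be told apart.

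In the developing hindbrain, dividing cells along the dorsal edge give rise to ordered classes of neurons, and each class switches on its own set of homeodomain, LIM, paired, basic helix-loop-helix or GATA factors. In mice, Tlx3 and Lmx1b mark excitatory neurons of the dorsal medulla, including those that form the NTS. Lbx1 in mice separates somatic sensory neuron classes from the visceral sensory ones that build the NTS, and Pax2 marks inhibitory interneurons. Isl1 is a LIM homeodomain factor of motor and sensory neurons. Gata2 and Gata3 are zinc finger factors that take part, in mice, in the making of serotonin neurons and of ventral inhibitory interneurons, and Hand2, with Gata2 and Gata3, acts in noradrenergic sympathetic neurons outside the brain. Several of these genes stay on in adult neurons at a low level, and Gata2 is also used by endothelium and blood progenitors.

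Values are given as scaled signal, the processed intensity of a spot with the 75th percentile of its array set to 100. The ± after a scaled signal is the scanner program's own error estimate for that spot. It covers 1 spot on 1 array and not animals, pools, labelling or arrays. Differences are female minus male on the log2 scale. A probe's brightness also depends on its sequence, so no gene's level is set against another gene's. Both arrays lay on 1 slide and were read in 1 scan. Between 80.1% and 82.3% of the non-control spots were well above background on an array, and no spot was saturated. Of the 3 probes of the Y-linked genes Eif2s3y and Ddx3y, that of Eif2s3y stayed under that limit in females and reached 22.4 in males. One Ddx3y probe stayed under it in females and reached 6.94 in males, and the other had 10.2 in females and 24.3 in males, well above background on both arrays.

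Of the 7 genes with a probe, 5 were well above background on both arrays, namely Lmx1b, Lbx1, Pax2, Isl1 and Gata2. Hand2 was well above background in males only, and Gata3 on neither array. Over all named genes, 81.0% were well above background on both arrays, 0.911% in males only and 15.3% on neither. None of the 5 genes measured on both arrays differed by 1.5-fold, the size used here to count a difference. Over 13424 measured genes, 1.5% were higher in females by 1.5-fold or more and 0.797% in males, so with 5 genes a count of 0 lies near the background. These shares are 201 genes in females and 107 in males, but 137 and 157 after quantile normalization and 283 and 80 after spike-in centring, with the female count first, so the balance between the arrays depends on the scaling. In the dimmest 25% of measured genes, which holds 3 of the 5, these shares were 5.01% in females and 1.97% in males. The median difference of the 5 genes was -0.03, beside 0.02 over all measured genes.

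**Figure D1:**
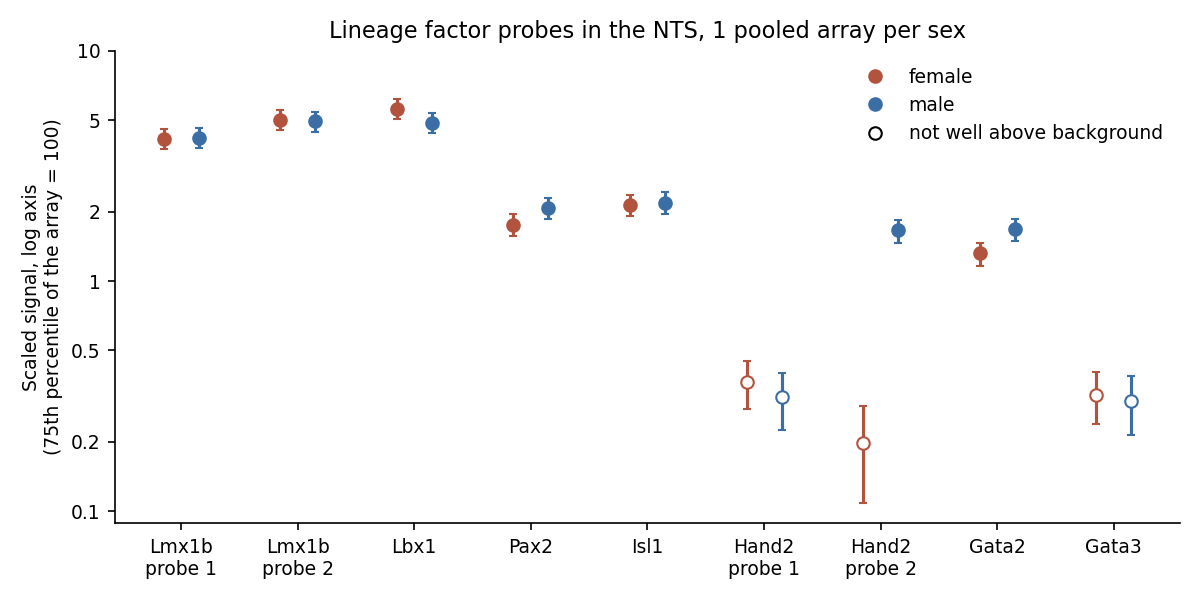
Scaled signal of the 9 probes of the lineage factors on the female (left) and male (right) array, on a log axis. Bars are the scanner program's error estimate for the spot, and open circles are spots not well above background. The female and male bars overlap for every probe but that of Gata2, where they part narrowly, and the second Hand2 probe, at 0.197 in females and 1.66 in males.

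Among the homeodomain factors of excitatory lineages, Lmx1b was read by 2 probes. The first had 4.16 ± 0.423 in females and 4.20 ± 0.428 in males. The second had 5.01 ± 0.507 in females and 4.93 ± 0.499 in males. The arrays were thus alike on both probes, with differences of -0.01 and 0.02, and the gene's mean difference was within 1.003-fold. The gap between these 2 probes is smaller than the median gap of 0.10 over the 2491 genes with 2 measured probes. The gene's difference was positive in 7 and negative in 5 of 12 processing settings, the one used here included.

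Lmx1b is needed in mice for the differentiation of serotonin neurons, so genes of those neurons are set beside it. Of 7 such genes, 6 were measured on both arrays, 3 higher in females and 3 in males, and none was past 1.5-fold. Their median difference was 0.08. It was -0.03 with normexp background correction, and -0.06 over all 7 with no filter on dim probes. Tph2, the serotonin synthesis enzyme of the brain, had 54.6 in females and 40.7 in males, a 1.34-fold difference. The vesicular monoamine transporter gene Slc18a2 had 104 and 108 on these arrays, female first. Fev, a transcription factor of serotonin neurons, was not well above background on either array.

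Lbx1 had 5.59 ± 0.564 in females and 4.87 ± 0.492 in males. The female value was the higher, by 1.15-fold or 0.20 on the log2 scale, and the error of this difference carried over from the 2 spots is 0.21. The direction was the same in all 12 settings, from 0.11 to 0.29. Lbx1 and Lmx1b lie in the second signal quartile of measured genes, where the middle 95% of differences ran from -0.30 to 0.33. Both genes fall inside that range.

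Pax2, the paired domain factor of inhibitory interneurons, had 1.76 ± 0.192 in females and 2.08 ± 0.224 in males. It was 1.18-fold lower in females, a difference of -0.24 with a spot error of 0.22. All 5 genes of GABA and glycine neurons were measured, none was past 1.5-fold, and their median difference was 0.01. Of these, the GABA synthesis gene Gad1 had 51.2 in females and 47.4 in males. Both measured genes of glutamatergic neurons were within 1.5-fold, with Slc17a6, the vesicular glutamate transporter of the medulla, at 402 in females and 370 in males. Slc17a7, the transporter used mostly in cortex, was at 0.559 in females and 0.547 in males.

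Isl1 had 2.14 ± 0.229 in females and 2.19 ± 0.235 in males, which differ by far less than the error of either spot. Its difference of -0.03 turned to 0.05 when the arrays were centred on spike-in controls. Isl1 belongs to cholinergic motor neurons among others, and the motor neuron list was lower in females in all 6 of its measured genes, and in 5 of 6 with normexp or without background correction. The median of that list was -0.22 and none of its genes was past 1.5-fold. Its intermediate filament gene Prph had 409 in females and 463 in males, and the choline transporter gene Slc5a7 had 89.8 in females and 105 in males. The part of these neurons in the value of Isl1 was not tested.

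Gata2 had 1.32 ± 0.152 in females and 1.67 ± 0.185 in males. It was 1.27-fold lower in females, a difference of -0.35 with a spot error of 0.23, and this was the widest difference among the 5 measured lineage factors. Normexp background correction reduced it to -0.15 and cyclic loess widened it to -0.42, with the same sign in all 11 settings that gave a value. Pax2, Isl1 and Gata2 lie in the dimmest 25% of measured genes, where the middle 95% of differences ran from -0.52 to 0.76, and all 3 fall inside that range. Gata3 was not well above background on either array, with 0.321 ± 0.0828 in females and 0.300 ± 0.0860 in males, so no fold is given.

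Gata2 is also a factor of endothelium and blood progenitors, so lists of endothelial genes and of erythroid and mast cell genes are set beside it. Of 12 measured endothelial genes, 11 were lower in females, or 8 of 12 after centring on spike-in controls, with a median of -0.15 and none past 1.5-fold. Their summed scaled signal was 249 in females and 287 in males. The receptor gene Kdr had 58.0 in females and 73.7 in males, and Vwf had 58.1 and 68.0 on these arrays, female first. Of 8 measured genes of erythroid and mast cells, 4 were higher in males by 1.5-fold or more and 4 were higher in females by less, with a median of -0.36. With normexp or without background correction, 2 of the 8 passed 1.5-fold, and with median, cyclic loess or quantile scaling 2 of the 8 were higher in females. Their summed scaled signal was 196 in females and 301 in males, most of it from Hbb, at 134 in females and 225 in males. Those 4 were the red cell genes Slc4a1 at 1.90-fold, Ahsp at 1.89-fold, Hbb at 1.68-fold and Alas2 at 1.66-fold. Gata1, the erythroid relative of Gata2, went the other way, with 0.804 in females and 0.639 in males. The part of endothelial or blood cells in the value of Gata2 was not tested.

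**Figure D2:**
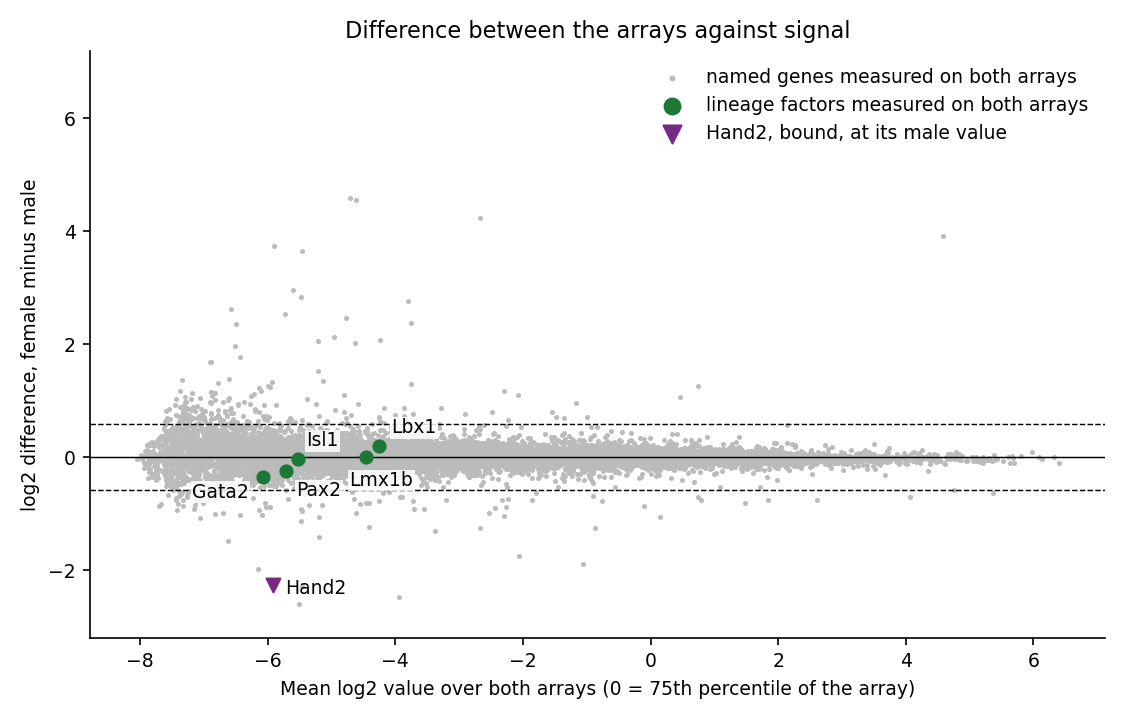
Difference between the arrays (log2, female minus male) against the mean log2 value, for all named genes measured on both arrays (grey) and for the 5 measured lineage factors (green). Dashed lines mark 1.5-fold. The 5 lie between -0.35 and 0.20 inside the cloud, and the bound for Hand2 (purple) is plotted at -2.27 and at its male value.

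Hand2, a basic helix-loop-helix factor, was the gene of this set on which the arrays parted. It was read by 2 probes of the same transcript accession, and they did not give the same picture. On probe A_64_P130050 the scaled signal was 0.197 ± 0.0886 in females, not well above background, and 1.66 ± 0.189 in males, well above background. Before scaling, that spot had a median intensity of 37 in females over a local background of 33, and of 71 in males over a local background of the same size. On probe A_44_P1088276 the scaled signal was 0.364 ± 0.0844 in females and 0.313 ± 0.0865 in males, neither well above background. One probe therefore separated the arrays widely and the other gave no measured level on either.

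Because the female value is only a bound, the male value of the first of these probes was set against 0.344, the dimmest probe signal that still counted as well above background in females. Hand2 was 4.82-fold lower in females by this rule, a bound of -2.27 on the log2 scale. A spot's own limit can lie higher, as the other Hand2 probe had 0.364 in females and was not well above background. The bound is therefore not a sure minimum. Normexp background correction brought the bound to -0.65 and no background correction to -0.83, both still past 1.5-fold. Of the 151 named genes well above background in males only, 64 had a bound of at least 1.5-fold. Of the same 151, 6, or 3.97%, had a bound at least as large as that of Hand2. Those 6 include Hand2 itself and the Y-linked gene Eif2s3y. Counting measured genes and bounds together, 2.56% of 14038 genes were higher in females by 1.5-fold or more and 1.22% in males, against 0 and 1 of the 6 lineage factors so counted.

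The spot that separated the arrays carried no outlier flag on either array, and neither did its local background. It was not well above background in females. Its extent was 28.1 in females and 30.0 in males, beside a median spot extent of 26.2 on either array. The 58 non-control spots well above background on both arrays that lie within 4 rows and columns of this spot had a median difference of -0.02. That median cannot show a fault confined to 1 spot. How often a second probe bears such a difference out was counted over the whole array. A named probe was well above background in males only, with a bound of at least 1.5-fold, in 83 cases. In 56 of these the gene had no other probe. In 7 cases, Hand2 among them, no other probe of the gene was well above background on either array. In 16 the other probes were within 1.5-fold, higher in females or divided, and in 4 another probe was also higher in males by 1.5-fold or more.

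Hand2 is best known from sympathetic and enteric ganglia, so the genes of those ganglia are set beside it. All 10 genes of that list with a probe were measured on both arrays, and none was past 1.5-fold. Their median difference was 0.05, and their summed scaled signal was 1937 in females and 2040 in males. The tyrosine hydroxylase gene Th had 532 in females and 602 in males, and the neuropeptide gene Npy had 531 in females and 493 in males. Hand1, the paralog of Hand2, had 3.07 in females and 2.86 in males. The noradrenaline neuron list, which the medulla shares with those ganglia, had a median of -0.06 with none of 7 genes past 1.5-fold, and Dbh, the enzyme that makes noradrenaline, had 381 in females and 399 in males. Of 8 measured sensory ganglion genes, 1 was past 1.5-fold in each direction, with a median of -0.06. No gene of that list was past 1.5-fold in females with normexp, without background correction, after quantile normalization or among brighter probes. Calca, the gene of calcitonin gene-related peptide, had 6.13 in females and 15.2 in males. The sodium channel gene Scn10a had 0.777 in females and 0.482 in males. Th and Dbh are on both the sympathetic and enteric list and the noradrenaline neuron list, so these lists cannot set ganglia apart from medulla neurons. The part of ganglia in the value of Hand2 was not tested.

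The 250 bases before the annotated start of Hand2 are shown because it is the gene on which the arrays parted. They lie on the minus strand of GRCr8 at chr16:37931489-37931738, are credited to RefSeq and are written 5′ to 3′. Capitals mark matches to GATAA on either strand and to CANNTG, the letters that GATA factors and basic helix-loop-helix factors are known to read.
Hand2 upstream: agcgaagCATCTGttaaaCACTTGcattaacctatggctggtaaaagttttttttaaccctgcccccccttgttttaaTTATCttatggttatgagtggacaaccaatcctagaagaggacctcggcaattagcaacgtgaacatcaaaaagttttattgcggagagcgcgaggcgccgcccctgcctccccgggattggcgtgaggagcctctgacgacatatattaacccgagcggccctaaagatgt
The window holds 2 CANNTG matches, starting 243 and 232 bases before the start, and 1 GATAA match on the opposite strand, from 172 to 168 bases before it. It also holds 5 matches to TAAT on either strand, the core that homeodomain factors read, and 2 of these share bases with the GATAA match. Over 33469 promoters of the same length, 23.5% held GATAA, 65.5% CANNTG and 57.0% TAAT. Over the 8 lineage factors, 3 held GATAA (Tlx3, Isl1 and Hand2), 4 held CANNTG (Lmx1b, Isl1, Hand2 and Gata3) and 5 held TAAT (Tlx3, Lbx1, Isl1, Hand2 and Gata2). These are matches of letters only, and the start used is that of 1 annotated transcript a gene.

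The closest relatives of the lineage factors were measured in part. Of 12 paralogs, all with a probe, 7 were measured on both arrays and none was past 1.5-fold, with a median of -0.13. Lmx1a had 20.7 in females and 21.0 in males, and Pax5 had 28.4 in females and 31.0 in males. Pax8 had 3.03 and 3.39, Isl2 had 1.09 and 1.20, and Tlx2 had 0.408 and 0.450, with the female value first. Lbx2 was well above background in males only, and by the same rule as for Hand2 its bound was 1.44-fold lower in females. Tlx1, Gata4, Gata5 and Gata6 were not well above background on either array.

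Other factors of hindbrain neuron formation were counted from lists. Of 19 progenitor and proneural factors, which act in dividing cells, 15 had a probe and 12 were measured. One, Dbx1, a homeodomain factor of ventral hindbrain progenitors, was 1.84-fold higher in females, with dim scaled signals of 0.930 in females and 0.506 in males. With normexp or without background correction, none of the 12 was past 1.5-fold. The list's median was 0.04. Of 36 postmitotic lineage factors, which act in neurons that no longer divide, 25 had a probe, 19 were measured and none was past 1.5-fold, with a median of -0.03. Drgx, a homeodomain factor of sensory relay neurons, had 70.2 in females and 58.9 in males, and Zfhx4 had 125 in females and 119 in males.

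The partner proteins through which the lineage factors act were measured almost in full. They include the LIM domain binding and LIM-only proteins, the E proteins that pair with Hand2, the FOG cofactors of GATA factors, and the PBX and MEIS cofactors of homeodomain proteins. Of 18 such genes, 17 had a probe, all 17 were measured on both arrays, and none was past 1.5-fold. Their median difference was 0.02 and their range was -0.23 to 0.32. The E protein gene Tcf4 had 189 in females and 187 in males, and the FOG cofactor gene Zfpm1 had 32.0 in females and 33.5 in males.

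**Figure D3:**
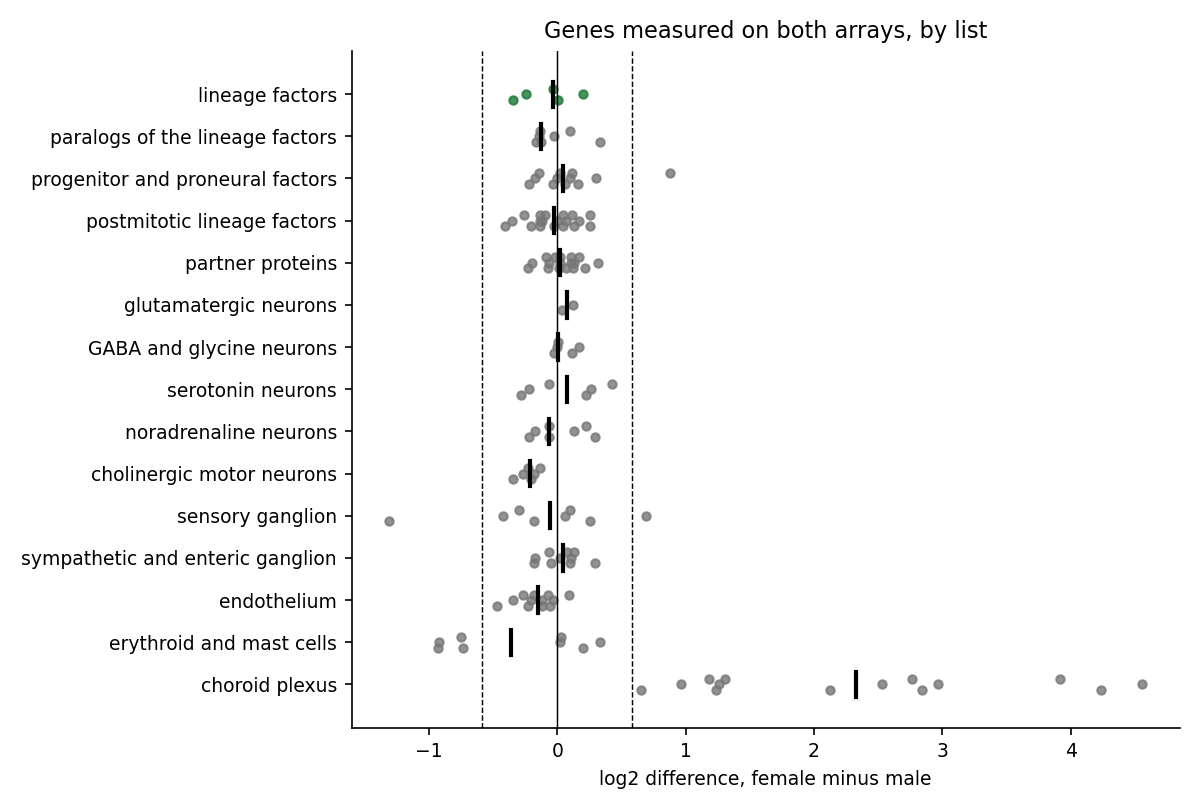
Differences (log2, female minus male) of the genes measured on both arrays, by list, with 1 point per gene and a bar at the list's median. Dashed lines mark 1.5-fold. The lineage factors, their paralogs and their partner proteins lie inside the lines, and all 14 choroid plexus genes lie beyond the right-hand line.

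**Figure D4:**
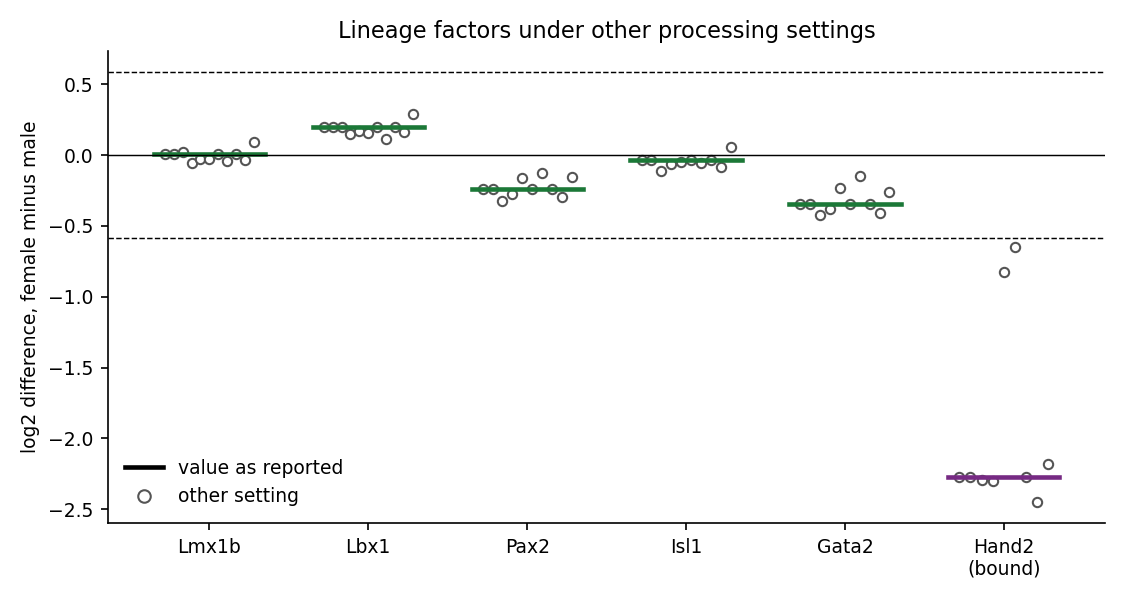
Difference (log2, female minus male) of the lineage factors measured on both arrays and the Hand2 bound, as reported (bars) and under the other processing settings (circles). Dashed lines mark 1.5-fold. The 5 measured genes stay inside the lines in every setting shown, and the Hand2 bound lies below the lower line in each, at -0.65 and -0.83 in the 2 settings that change the background correction and between -2.45 and -2.18 in the rest.

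The labelled tissue was checked against lists of defining genes. All 5 Hox genes with a probe that mark caudal hindbrain were measured, none past 1.5-fold and with a median of 0.05, and Hoxb4 had 73.0 in females and 70.4 in males and Hoxb5 100.1 in females and 89.8 in males. Of 6 forebrain genes with a probe, 4 were not well above background on either array and 2 were measured. Lhx6, a factor of forebrain interneurons, had 21.9 in females and 22.6 in males on 1 of its 2 probes. The other Lhx6 probe was not well above background on at least 1 array. Neurod6 was dim, with 0.656 in females and 1.02 in males. It was 1.56-fold lower in females, and within 1.5-fold after spike-in centring, with normexp or without background correction. Pan-neuronal genes had a median of -0.04 with none of 7 past 1.5-fold, and Uchl1 had 3746 in females and 3862 in males. Area postrema genes had a median of 0.13 with none of 5 past 1.5-fold, and 4 of the 5 were higher in females. Casr had 52.3 in females and 47.2 in males, and Ramp3, the gene that was lower in females, had 37.7 in females and 41.2 in males. Pericyte and smooth muscle genes had a median of -0.06 with none of 7 past 1.5-fold, and Acta2 had 14.2 in females and 14.8 in males and Cspg4 67.2 in females and 59.6 in males. T lymphocyte genes had a median of -0.08 with none of 3 past 1.5-fold, and Cd3d had 18.7 in females and 19.1 in males.

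Some lists of neighbouring tissue did differ. The choroid plexus list had all 14 measured genes higher in females by 1.5-fold or more, with a median of 2.33. Among them was Ttr, the thyroxine carrier of cerebrospinal fluid, at 15.1-fold. The summed scaled signal was 9831 in females and 794 in males, most of it from Ttr, at 9325 in females and 617 in males. With normexp 12 of the 14 passed 1.5-fold, and 13 without background correction. In the meningeal and fibroblast list, with a median of 0.12, 2 of 10 genes were higher in females by 1.5-fold or more, Slc47a1 at 2.25-fold and Igf2 at 1.74-fold, and 1 in males, the collagen gene Col1a2 at 1.70-fold. In females 1 gene passed with normexp, and 1 of 8 among brighter probes. All 8 measured cerebellar genes were higher in females, 1 of them past 1.5-fold, the dim Fat2 with 0.972 in females and 0.475 in males, and the median was 0.14. None was past 1.5-fold with normexp, without background correction or among brighter probes, and after quantile or median scaling 6 of the 8 were higher in females. The part of these tissues in the values of the lineage factors was not tested.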

How the data were processed

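Per the labels' protocols, total RNA of 5 rats of a sex, 100 ng each, was pooled, given a Cy3 label and read on an Agilent array of 1 colour. The deposited scanner files hold spot intensity on a linear scale, and the processed intensity is background-corrected. Per the file headers they come from Agilent Feature Extraction 11.5.1.1, while the submitters' processing notes name version 9.1. The authors' deposited value table holds signal equal to the processed intensity divided by 1 constant per array, 23.4 for the female and 22.8 for the male array, so it is linear and not centred by gene.

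Values were log2 of the processed intensity minus the array's 75th percentile. Control spots and spots with an outlier flag on either array (363 on the female, 284 on the male array) were left out, and repeated spots were averaged. A probe counted as measured when each of its spots was flagged well above background in both sexes, and the measured probes of a gene were averaged. A gene well above background on 1 array only was given a bound. It set the brightest probe against the other array, at the higher of its own dim value and the lowest value well above background. Probes were named by accession, without versions, from the RefSeq table of GRCr8. The array design uses an older assembly, so no probe coordinates are given. The number of arrays, 1 per sex, limits the precision.

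The members and lists were chosen with earlier results of these data known. Named were the lineage factors and their paralogs, and from each other list up to 4 genes past 1.5-fold, otherwise up to 2 with the highest mean value. One gene that this rule names is not reported here. Fev, Lhx6, Eif2s3y and Ddx3y were named outside this rule, after their values were seen. Some genes, such as Prph, Th and Dbh, are on more than 1 list. The alternatives were normexp correction (offset 50) and no correction, both on each spot's median intensity where the plan named the mean, quantile, median, loess and spike-in scaling, the authors' table, other filters and probe summaries, and other fold thresholds. On simulated arrays, 99 of 100 genes given a 2-fold and 100 of 100 given a 3-fold difference passed 1.5-fold. The genes given a difference were well above background on both arrays, and only random spot noise was added. Variation between animals, pools or labellings was not simulated, so this checks the calculation and not the power to find a difference in dim genes. Python 3.11.15 with numpy 2.4.6 and pandas 2.3.3, and R 4.3.3 with limma 3.58.1, were used.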

Additional observations from a re-analysis of the deposited data

How the results depend on the processing

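No paired analysis was possible because there is a single pool and array for either sex. Under 11 other settings, no lineage factor measured on both arrays passed 1.5-fold. The differences of Pax2 (-0.33 to -0.13), Gata2 (-0.42 to -0.15) and Lbx1 (0.11 to 0.29) kept their sign in each setting that gave a value, while Lmx1b (-0.05 to 0.09) and Isl1 (-0.12 to 0.05) changed sign around 0. The Hand2 bound of -2.27 was -0.65 with normexp and -0.83 without background correction. The spot's median intensity was 37 in females and 71 in males, over a local background of 33. Adding 50 to both corrected values, as normexp did here, or leaving that background in makes their ratio smaller. With no filter on dim probes, the mean of both Hand2 probes was -1.43 and Gata3 was at 0.10. The number of lineage factors higher in males by 1.5-fold or more was 1. It became 2 at the lowest threshold tried, where Gata2 was added, and 0 among brighter probes, a filter that Hand2 did not pass and that left 2 genes measured in place of 5. Over all genes, the counts past 1.5-fold in females and males were 201 and 107. They were 37 and 33 with normexp, 50 and 38 without correction, 137 and 157 after quantile normalization, 179 and 117 with median scaling, 283 and 80 after centring on spike-in controls, 59 and 52 in brighter probes, and 1134 and 513 with no filter. The median of all genes was 0.02, and 0.10 after spike-in centring. Signal over background limits these values, as 3 of the 5 lineage factors measured on both arrays lay in the dimmest quartile. Gata3 was not well above background on either array.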
